A study of Saccharomyces cerevisiae with 4 samples.

Results

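The TIR and DAN genes encode wall mannoproteins of *Saccharomyces cerevisiae* that are known to be made in larger amounts when oxygen is scarce or the temperature drops. The set comprised TIP1, TIR1, TIR2, TIR3, TIR4, DAN1, DAN3 and DAN4, and a gene was measured where a probe set of the array named it and no other gene. By this rule 7 of the 8 genes were measured, each by 1 probe set, among 5656 genes in all. DAN3, listed as PAU24 in the R64 gene table, was named only by probe sets shared with other genes, and its signals are described apart. Total RNA of exponentially growing cells was hybridised to Affymetrix yeast arrays. Wild type cells of strain SEY6210 gave 2 arrays, and a pmt1 pmt2 mutant in the SEY6210 background gave 2 arrays, each from a biological sample of its own. Cultures of both strains were diluted to an optical density of 0.1, grown to 0.45 and kept growing for 3 hours. The labels give neither temperature nor aeration, and the sources used here do not say what part of PMT1 and PMT2 was altered.

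These proteins belong to a family rich in serine and threonine, which enters the secretory pathway, receives O-linked mannose and is attached to the wall through a glycosylphosphatidylinositol (GPI) anchor. PMT1 and PMT2 encode the mannosyltransferases of the endoplasmic reticulum that add the first of these mannoses. In aerobic cells the wall carries Cwp1 and Cwp2, and under anaerobic growth Dan and Tir proteins take their place. The switch is driven by the sterol-responsive activator Upc2, while Rox1, Mot3 and the Tup1-Cyc8 co-repressor hold anaerobic genes down in air. TIP1, TIR1 and TIR2 are also known as cold shock genes.

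Levels are the deposited signals of each array in linear units, and changes are differences of mean log2 signal, pmt1 pmt2 minus wild type, with the SE from limma. Array medians lay between 54.4 and 66.1. Wild type means of TIP1, TIR3, TIR1, TIR2 and TIR4 (3936.6, 1732.5, 1390.1, 540.65 and 117.4) lay above this range. That of DAN4 (62.7) lay within it and that of DAN1 (16.75) under it. As background level served 26.2, the highest signal among 19 chosen control probe sets, those for the bacterial genes dap, lys, phe, thr and trp and for mouse genes. PMT1 (YDL095W) measured 1177.7 and 808.7 in wild type against 111.4 and 103.8 in the mutant, and PMT2 (YAL023C) measured 2645.5 and 2770.8 against 11.9 and 15.5. With an adjusted p under 0.05 in limma counted as a change, 22 of 5656 genes (0.389%) changed, PMT1 (adjusted p = 0.0382) and PMT2 (0.00309) among them. In wild type and mutant arrays alike, the 4 genes of alpha cells measured at least 732.1. Of 5 genes of a cells, 3 were at or below background on all arrays. MFA1 (YDR461W) overlapped between the groups, at 24.6 and 38.8 in wild type and 43.8 and 30.3 in the mutant. MFA2 (YNL145W) measured 126.4 and 96.0 in wild type and 12.1 and 20.5 in the mutant. Its limma adjusted p was 0.0836, or 0.00825 with the array number as a covariate. On the arrays numbered 1 the actin control for the transcript's tail was 2.99 and 3.15 times as bright as the one for its start, against 1.38 and 1.32 times on those numbered 2, so changes are also given within each array number.

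None of the 7 TIR and DAN genes passed limma's test (0 called, against 0.389% of all genes), nor with the array number as a covariate (0 called, against 3.02%). The genes did not move to 1 side. TIP1 and TIR3 had lower signals on both mutant arrays than on either wild type array, DAN4 had higher ones, and TIR1, TIR2 and TIR4 overlapped between the groups. At limma's unadjusted p under 0.05 there was 1 higher gene, DAN4, and 0 lower, against 5.37% of all genes higher and 1.80% lower. The median log2 change was −0.07 over the 7 genes and −0.23 over the 6 above background on any array, beside 0.03 for all genes, and single genes ranged from −0.81 to 1.38. In RNA from whole cultures, fewer cells making a transcript and less transcript per cell cannot be told apart. An exact permutation test of 1 gene over 2 against 2 arrays could not go below p = 0.333.

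**Figure D1:**
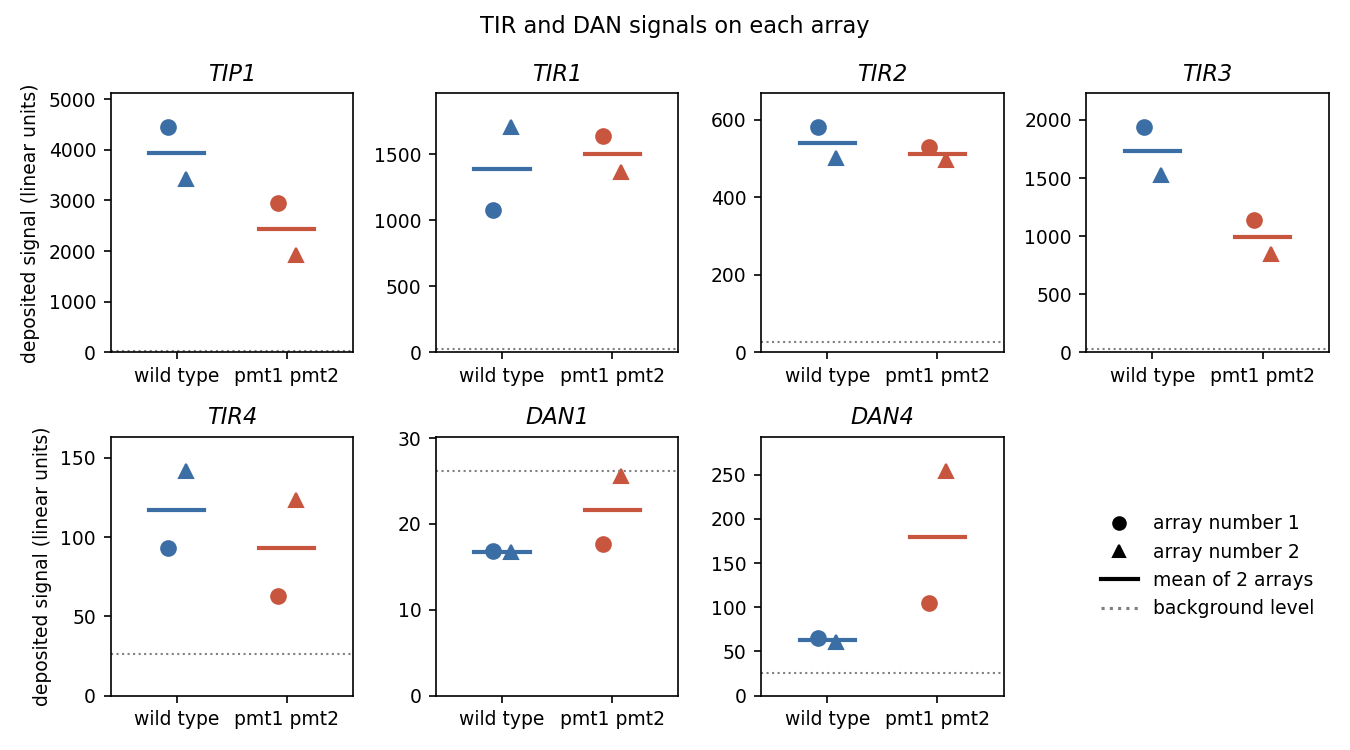
Deposited signal of each TIR and DAN gene (linear units, axes from 0, 1 panel per gene) on the 2 wild type and 2 pmt1 pmt2 arrays, with circles for array number 1, triangles for array number 2, bars for group means and a dotted line at the background level of 26.2. TIP1 and TIR3 lie lower and DAN4 higher on both mutant arrays, while all DAN1 signals lie under the dotted line.

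TIP1 (YBR067C, chromosome II) encodes a cold-inducible cell wall mannoprotein. Its signal was 4447.3 and 3425.8 on wild type arrays 1 and 2, and 2940.4 and 1921.0 on pmt1 pmt2 arrays 1 and 2. Both mutant arrays lay under both wild type arrays, and in each strain array 2 was the lower one. The means were 3937 ± 722 in wild type and 2431 ± 721 in pmt1 pmt2 (SD, n = 2 each), and the ratio of geometric means was 1.64-fold, higher in wild type. The log2 change was −0.72 ± 0.40 (SE), with a 95% interval from −1.68 to 0.25 and a limma adjusted p = 0.887. Within array numbers 1 and 2 it was −0.60 and −0.83, and 6.24% of all genes had a lower change.

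TIR3 (YIL011W, chromosome IX) encodes a wall mannoprotein needed for growth without oxygen. It measured 1937.3 and 1527.8 in wild type against 1140.6 and 846.6 in the mutant. As for TIP1, the groups did not overlap and array 2 was the lower one in each strain. Means were 1732.5 ± 290 and 994 ± 208 (SD, n = 2 each), and by geometric means wild type was 1.75-fold higher. The log2 change of TIR3 was −0.81 ± 0.37 (SE), the lowest of the 7 genes (95% interval −1.71 to 0.10, limma adjusted p = 0.773). It was −0.76 and −0.85 within array numbers 1 and 2, the closest pair of values among the genes with non-overlapping groups, and 4.76% of all genes had a lower change.

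TIR1 and TIR2 sat near 0. TIR1 (YER011W, chromosome V), also called SRP1, encodes a serine-rich wall mannoprotein induced by cold and by lack of oxygen and needed for anaerobic growth. Its signals were 1075.8 and 1704.4 in wild type and 1637.0 and 1364.0 in the mutant. Both mutant signals lay between those of the wild type arrays. The log2 change was 0.14 ± 0.39 (SE), with a 95% interval from −0.82 to 1.10 and a limma adjusted p = 0.994. TIR1 was the single gene of the set whose change differed in sign between the array numbers, at 0.61 within number 1 and −0.32 within number 2. Without wild type array 1 its log2 change turned to −0.19.

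TIR2 (YOR010C, chromosome XV), also called SRP2, is a cold-inducible relative of TIR1. It measured 580.4 and 500.9 in wild type against 529.2 and 495.2 in the mutant. These 4 signals were the most even of any gene in the set above background, and the groups overlapped. The log2 change was −0.07 ± 0.34 (SE), and its 95% interval of −0.91 to 0.76 leaves room for a change of either sign (limma adjusted p = 0.994). Without wild type array 1 the value was 0.031.

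TIR4 (YOR009W) lies next to TIR2 on chromosome XV and encodes another wall mannoprotein needed for anaerobic growth. Its signals were 92.9 and 141.9 in wild type and 62.7 and 123.2 in the mutant, so the groups overlapped. Array 2 was the higher one in both strains, by 0.61 on the log2 scale in wild type and 0.97 in pmt1 pmt2. That gap was larger than the difference between the strains, which was −0.57 within number 1 and −0.20 within number 2. Over all arrays the log2 change was −0.39 ± 0.47 (SE, limma adjusted p = 0.994, 95% interval −1.53 to 0.76), and without pmt1 pmt2 array 1 it was 0.10. The change of TIR2 exceeded that of its neighbour TIR4 by 0.43 and 0.19 within numbers 1 and 2.

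The DAN genes, named for delayed anaerobic expression, are known to be repressed in air. DAN1 (YJR150C, chromosome X) encodes a wall mannoprotein made under anaerobic growth. It measured 16.8 and 16.7 in wild type against 17.7 and 25.6 in the mutant, at or under the background level on all 4 arrays. No fold or log2 change is given for DAN1, since its signals are not separated from background.

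DAN4 (YJR151C) lies next to DAN1 on chromosome X and encodes a wall mannoprotein of the same anaerobic group. Its signal was 65.1 and 60.3 on wild type arrays 1 and 2, and 104.9 and 254.5 on pmt1 pmt2 arrays 1 and 2. The wild type arrays were close together and the mutant arrays were both higher but far apart. The means were 62.7 ± 3.39 and 180 ± 106 (SD, n = 2 each), 2.61-fold higher in pmt1 pmt2 by geometric means. The log2 change was 1.38 ± 0.50 (SE), with a limma unadjusted p = 0.0317 and adjusted p = 0.607, and 3.18% of all genes had a higher change. The 95% interval, which is not adjusted for the number of genes, ran from 0.17 to 2.60. Within array numbers 1 and 2 the log2 change was 0.69 and 2.08. Leaving out pmt1 pmt2 array 2 took it to 0.74, and leaving out pmt1 pmt2 array 1 took it to 2.02. On pmt1 pmt2 array 2 the signal was higher than on array 1 by 1.28 on the log2 scale, beside a median of 0.39 for all genes on the same arrays.

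**Figure D2:**
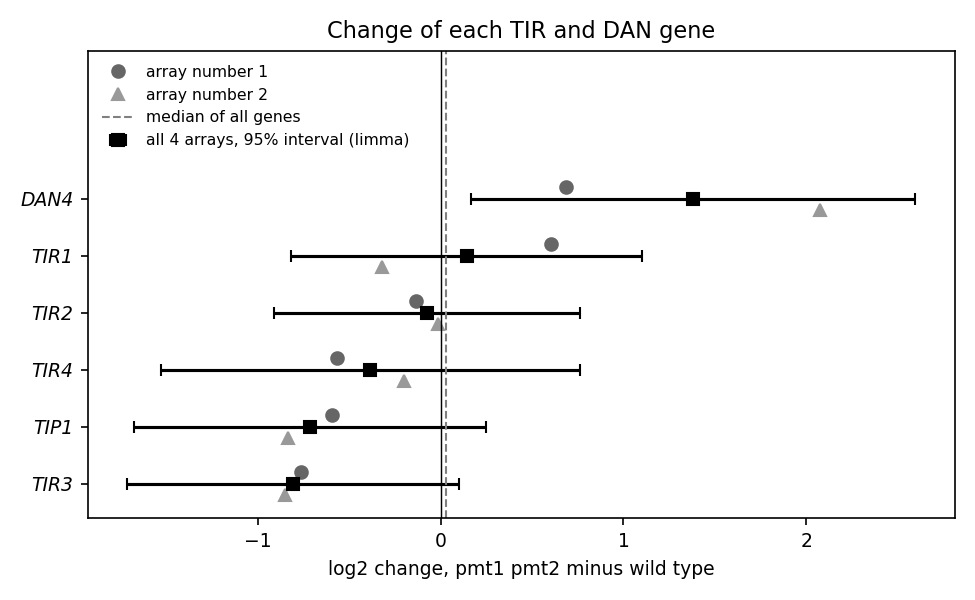
Log2 change of the 6 TIR and DAN genes above background (x axis, pmt1 pmt2 minus wild type), with squares and bars for the limma estimate over 4 arrays and its 95% interval, circles and triangles for the change within array numbers 1 and 2, and a dashed line at the median of all genes (0.03). All intervals but that of DAN4 (0.17 to 2.60, not adjusted for the number of genes) cross 0, and the circle and triangle of TIR1 lie on opposite sides of 0. The intervals are from the fit without the array number as a covariate.

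Of the 6 genes above background, the groups did not overlap for 1 higher gene, DAN4, and for 2 lower genes, TIP1 and TIR3. All genes gave non-overlapping groups in 18.5% of cases upward and 14.7% downward. Within both array numbers 1 of the 6 was higher and 4 lower, against 31.9% and 31.0% of all genes, and 1 gene went opposite ways, against 37.1%. The median change of the 6 genes was −0.35 within number 1 and −0.26 within number 2, whereas that of all genes was −0.15 and 0.21.

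**Figure D3:**
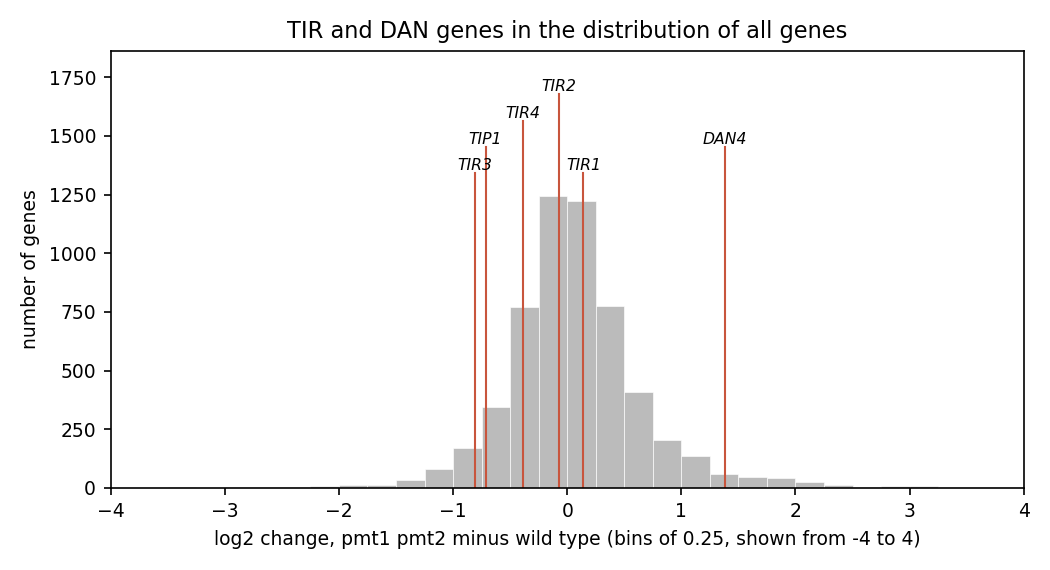
Histogram of the log2 change (x axis, pmt1 pmt2 minus wild type, shown from −4 to 4) over 5656 genes (y axis, number of genes per bin), with a line at the change of each of the 6 TIR and DAN genes above background. TIR1, TIR2 and TIR4 stand within the bulk of genes, TIP1 (−0.72) and TIR3 (−0.81) on its lower side and DAN4 (1.38) on its upper side.

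DAN3 could be read only through probe sets that its close relatives share. It belongs to the seripauperins, small proteins of subtelomeric genes that are similar to the front part of the Tir proteins. A probe set naming PAU9, PAU12 and PAU24 (DAN3) measured 75.0 and 67.7 in wild type against 87.4 and 89.3 in the mutant. Both mutant signals were the higher ones, with a log2 change of 0.31 ± 0.35 (SE, limma adjusted p = 0.999 over 9335 probe sets). A probe set naming PAU24 with 6 other seripauperins measured 103.2 and 61.8 in wild type and 134.6 and 77.8 in the mutant, and these groups overlapped (log2 change 0.36 ± 0.50 (SE), limma adjusted p = 0.999). Which of the named genes gave these signals cannot be told apart.

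Seripauperins with a probe set of their own had signals higher in pmt1 pmt2 without passing the test. Of 23 listed genes 10 were measured, and 0 passed limma's test (0.389% of all genes). Of the 10, 0 had a limma unadjusted p below 0.05, against 5.37% of all genes higher and 1.80% lower. All 10 were higher within both array numbers, against 31.9% of all genes. For 8 of them the groups did not overlap, against 18.5% of all genes in this direction. Their median log2 change was 0.58 (0.24 within number 1 and 0.88 within number 2), beside 0.03 (−0.15 and 0.21) for all genes. The probe sets of these 10 genes are of a type that Affymetrix marked as matching a family of similar sequences, so the genes are not independent readings. PAU3 (YCR104W) measured 34.2 and 32.6 in wild type against 47.2 and 66.0 in the mutant (limma adjusted p = 0.818). PAU10 (YDR542W) measured 145.3 and 92.1 against 181.4 and 192.4, and PAU4 (YLR461W) measured 136.6 and 161.8 against 214.0 and 224.4.

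Other anaerobic and hypoxic genes mostly had lower signals in pmt1 pmt2, though ARE1 and HMG2 lay near 0 (log2 change −0.02 and −0.04). PDR11 (YIL013C) was the single gene with a log2 change above 0 (0.59, limma adjusted p = 0.966). It measured 33.9 and 31.3 in wild type against 35.1 and 68.4 in the mutant. Of 12 such genes 0 passed limma's test, 2 were lower at unadjusted p under 0.05 (1.80% of all genes), and 11 had a log2 change below 0 (47.5% of all genes), with a median of −0.37 (−0.52 and −0.21 within numbers 1 and 2). ANB1 (YJR047C), the anaerobic form of translation factor eIF5A, measured 590.9 and 935.9 in wild type against 115.1 and 168.4 in the mutant (log2 change −2.42 ± 0.42 (SE), limma adjusted p = 0.132, or 0.00542 given the array number as a covariate). AAC3 (YBR085W), an anaerobic carrier for ADP and ATP of the mitochondrial inner membrane, measured 44.7 and 104.3 against 16.3 and 24.3, the latter under background (limma adjusted p = 0.425, or 0.0236 given that covariate). FET4 (YMR319C), a low-affinity iron transporter, measured 75.0 and 104.2 against 40.0 and 68.8 (adjusted p = 0.890). The groups did not overlap for any of these 3 genes, which were named for their small p. Over the 12 genes, 6 were lower and 1 higher without overlap, and 5 overlapped. Of all genes, 14.7% were lower and 18.5% higher in this way. ANB1 and TIR3 were lower within both array numbers, at −2.36 and −2.47 for ANB1 against −0.76 and −0.85 for TIR3, while DAN4 was higher in both.

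Transcripts of the regulators of anaerobic and sterol genes went both ways. Of 11 genes 0 passed limma's test and 0 had an unadjusted p below 0.05, with a median log2 change of −0.04 and a range from −0.56 to 0.31. UPC2 (YDR213W), the activator of the DAN and TIR genes, measured 27.3 and 21.6 in wild type against 20.3 and 13.4 in the mutant, all close to or under background (limma adjusted p = 0.942). CYC8 (YBR112C), of the co-repressor, measured 117.3 and 146.0 against 64.3 and 145.4, and MGA2 (YIR033W), a membrane-bound activator of fatty acid desaturase, 37.6 and 29.6 against 41.1 and 39.4. The groups overlapped for 9 of the 11 regulators, ROX1 and MOT3 among them, and for 66.8% of all genes.

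Of 6 wall mannoproteins of aerobic growth, 4 had higher signals on both mutant arrays than on either wild type array, which held for 18.5% of all genes. Among the 6 0 passed limma's test, 1 was higher at unadjusted p under 0.05 (5.37% of all genes), and the median log2 change was 0.45 (0.54 and 0.36 within numbers 1 and 2). CWP1 (YKL096W), a GPI mannoprotein of the aerobic wall, measured 2234.9 and 2673.0 in wild type against 3571.5 and 4470.2 in the mutant (log2 change 0.71 ± 0.36 (SE), limma adjusted p = 0.834). SED1 (YDR077W), a structural wall protein of stressed cells, measured 3476.1 and 3939.1 against 5563.6 and 5695.4 (adjusted p = 0.890). SPI1 (YER150W), a GPI wall protein induced by stress, measured 269.0 and 327.3 against 957.0 and 1365.6 (log2 change 1.95 ± 0.38 (SE), limma adjusted p = 0.164, or 0.0126 given that covariate). CWP2 had a log2 change of 0.00 and was named after its values were seen, as the partner of CWP1 in the aerobic wall.

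Cold induced genes outside the TIR family were mixed. Of 8 genes HSP12 rose, from 171.0 and 100.3 to 1631.4 and 1948.1 (limma adjusted p = 0.0364), and 7 did not pass the test, which 0.389% of all genes passed. Without pmt1 pmt2 array 1 or array 2 its log2 change stayed at 3.89 or 3.64, beside 3.77 over all arrays, but limma's adjusted p was 0.144 or 0.224. In these fits the mutant group is 1 array, assumed to vary like the wild type arrays. Without wild type array 1 or array 2 the log2 change of HSP12 was 4.15 or 3.38. HSP12 encodes a membrane-associated small heat shock protein. TPS1 and TPS2, for the enzymes of trehalose synthesis, had log2 changes of 1.06 and 1.18 (limma adjusted p = 0.691 and 0.520), and the median of the 8 genes was 0.06. At limma's unadjusted p under 0.05, 3 of the 8 were higher and 0 lower, against 5.37% and 1.80% of all genes. Among the TIR genes known from cold shock, TIP1, TIR1 and TIR2 had −0.72, 0.14 and −0.07 on the same scale.

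**Figure D4:**
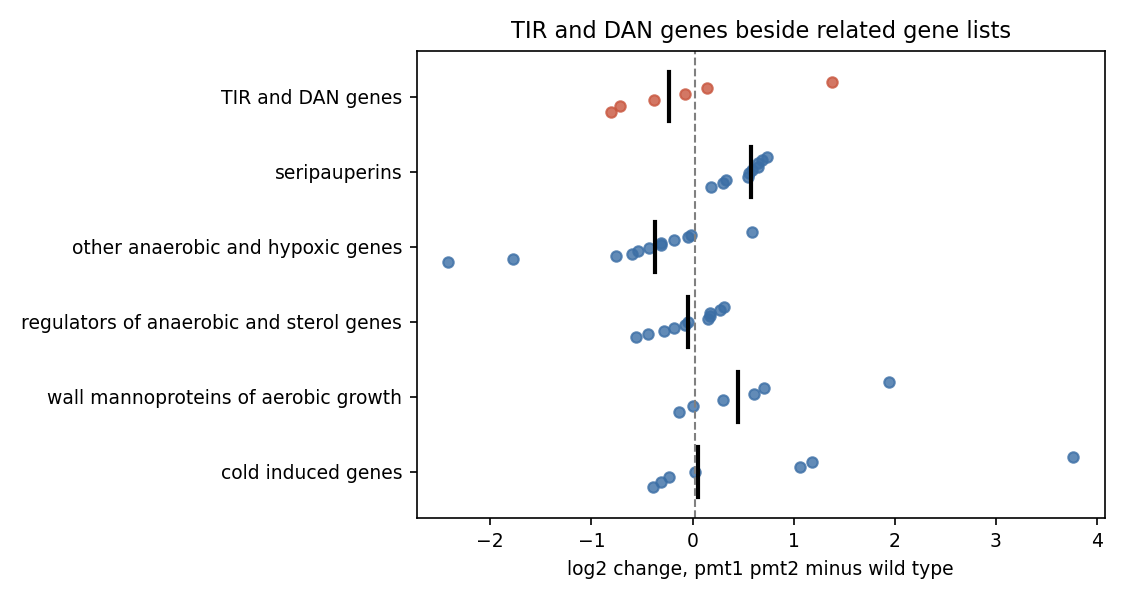
Log2 change (x axis, pmt1 pmt2 minus wild type) of the TIR and DAN genes and of 5 related lists, 1 point per gene, with a black bar at the list median. DAN1 and LOT6, under background on all arrays, are not drawn, and a dashed line marks the median of all genes (0.03). The medians are −0.23 for the 6 TIR and DAN genes drawn, 0.58 for seripauperins and −0.37 for other anaerobic and hypoxic genes. They are −0.04 for regulators, 0.45 for aerobic wall mannoproteins and 0.06 for cold induced genes, LOT6 counted.

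DAN4 had the largest change of the set above background, and the genes with the most similar profile were sought among the 3757 genes whose mean log2 signal reached 6 in either group. Likeness was the Euclidean distance between log2 signals centred on each gene's mean over the 4 arrays. The 3 nearest were PCA1 (YBR295W, distance 0.25), a cadmium-exporting ATPase, ATG22 (YCL038C, 0.26), a vacuolar amino acid exporter, and TPO4 (YOR273C, 0.27), a polyamine transporter. PCA1 measured 44.4 and 51.4 in wild type against 76.1 and 179.1 in the mutant, with the same wide gap between the mutant arrays as DAN4. With 4 arrays such likeness is a description only.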

How the data were processed

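The authors deposited 1 table of probe set signals (intensity, linear units) for 9335 probe sets on 4 arrays, from 0 to 12590.3. GCRMA is named, without version or settings, per the submitters' processing notes. The table holds 5 to 11 zeros per array, unusual for GCRMA, so the summary method is uncertain. Scaling between arrays and the genome build are not given in the sources used here. Zeros were replaced by 0.1 and log2 signals were used without further normalization. Probe sets naming 1 gene (6504) were kept, and for 315 genes with several the one with the highest mean was used. All 5656 genes matched a locus tag of the R64 table, used for names and neighbours only.

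Groups were compared over all genes with limma 3.58.1 in R 4.3.3 (lmFit, eBayes, two-sided, Benjamini-Hochberg), after a test on simulated data. Intervals are 95% intervals of limma's moderated estimate. The number of arrays limits the precision. The members, lists and tests were chosen with earlier results of these data known. Named were all members, the mutated genes, up to 3 genes of each list with the smallest p, and the 3 genes most like the most changed member above background. Alternatives were quantile normalization, median centring, a minimum mean log2 of 6, raising low values to 4, adding 1 to signals, other choices of probe set, a mean-variance trend, the array number as a block, and leaving out each array.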

Additional observations from a re-analysis of the deposited data

How the results depend on the processing

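No TIR or DAN gene passed limma's test under any of the 13 alternatives (0 called in each), and the lowest adjusted p was 0.101, for DAN4 with the replicate block. TIP1, TIR3 and DAN4 had a limma unadjusted p under 0.05 with the replicate block (1016 of all genes) and with the mean-variance trend (412 of all genes). Of 90 values of single genes, those of DAN1 included, 87 kept their direction. Many of these could not turn. The minimum mean log2 of 6, the raising of low values, the other choices of probe set, the trend and the block left every log2 change unchanged. The 3 that turned came from leaving out 1 array: without wild type array 1 the log2 change was −0.19 for TIR1 and 0.031 for TIR2, and without pmt1 pmt2 array 1 it was 0.10 for TIR4. The cause was not tested. Leaving out each array in turn moved the log2 change from −1.02 to −0.41 for TIP1, −1.02 to −0.59 for TIR3, −0.19 to 0.47 for TIR1, −0.18 to 0.031 for TIR2, −0.87 to 0.10 for TIR4 and 0.74 to 2.02 for DAN4. DAN1 was left out of the fit with the minimum mean log2 of 6.

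The count of changed genes, 22, was 2 after quantile normalization, 38 with the minimum of 6, 1 when log2 values under 4 were set to 4, and 0 when limma tested every probe set (510 at unadjusted p under 0.05). It ranged from 0 to 62 when arrays were left out: 62 without wild type array 1, 44 without wild type array 2, 0 by limma without pmt1 pmt2 array 1 (where 612 had an unadjusted p under 0.05) and 1 without pmt1 pmt2 array 2. The labels do not pair the arrays. Deviations of same-numbered arrays from their group means correlated at 0.83 over 3539 genes, which are not independent. In limma with a replicate block for array number, 171 genes passed (3.02%) and 0 of the 7, with limma adjusted p = 0.101 for DAN4, 0.164 for TIR3 and 0.213 for TIP1. The median of all genes moved to −0.14 without pmt1 pmt2 array 2 and to 0.24 without array 1, while TIP1 and TIR3 moved the other way. Without pmt1 pmt2 array 1 or array 2 PMT1 stayed at a log2 change of −3.23 or −3.13 but missed limma's threshold (adjusted p = 0.187 or 0.242), and so did PMT2 without array 1 (−7.45, adjusted p = 0.0591). In fits without 1 array the lone array of a group is assumed to vary like those of the other group. DAN1 has no log2 change here because its signals lie at background.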

Other observations

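Seripauperin genes that share probe sets had higher signals in pmt1 pmt2 on most of these sets. Of 12 probe sets that named several seripauperins, 9 had both mutant arrays above both wild type arrays, 2 overlapped and 1 was lower. Over all 9335 probe sets, 16.3% were higher and 14.5% lower in this way. Of the 12 sets 0 passed limma's test, and at an unadjusted p below 0.05 there were 0 higher and 1 lower. Their median log2 change was 0.67, beside 0.02 for all probe sets. The probe set with the most similar mutant arrays, naming 5 genes from PAU1 to PAU20, measured 131.1 and 96.6 in wild type against 193.0 and 191.6 in the mutant. A probe set naming 8 seripauperins measured 174.7 and 18.5 in wild type against 221.0 and 257.6 in the mutant, with wild type array 2 far below wild type array 1. The lower probe set, for PAU19, PAU21 and PAU22, was under background on all arrays. These sets share genes and sequence, so they are not separate readings.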
